A study of Mus musculus with 16 samples.

Results

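The nuclear pore and transport receptor genes were followed in mouse uterus after 6 h of estradiol. Members were the genes whose names on the array mark them as a numbered nucleoporin (Nup), importin (Ipo), exportin (Xpo), karyopherin (Kpna, Kpnb) or transportin (Tnpo), together with Ran, Ranbp1, Ranbp2, Rangap1, Rcc1 and Cse1l. The rule found 50 genes on 74 probes, and the probe with the highest mean signal over the 16 arrays stood for each gene. Of these, 48 genes entered the fit, among 25859 genes tested in all. Kpna7 and Nup62cl did not, since no probe of either was well above background on at least 4 arrays. The 48 were well above background on all 16 arrays.

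All mice had been ovariectomised at 4 weeks of age and kept for 2 to 3 weeks afterwards, which removes the main source of estrogen. Arg260 E2 mice carried the genotype named Arg260, after an arginine of estrogen receptor alpha, and received 8 ug/kg of 17beta-estradiol (E2) under the skin in castor oil. Arg260 PLB mice had the same genotype and received the oil with 0 ug/kg of hormone (PLB). WT E2 and WT PLB mice were wild type and received the same 2 treatments. Each group had 4 samples with 1 array each, and uterine RNA was collected 6 h after injection. The labels name no change made to the arginine and do not say whether a sample was 1 animal or a pool, so that p-values measure the spread between these samples, which may in part be technical.

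Nuclear pores are ring-shaped channels through the nuclear envelope. A coat of Y-shaped complexes and an inner ring form the scaffold, and nucleoporins rich in phenylalanine-glycine (FG) repeats fill the channel and let through only cargo bound to a transport receptor. Importins carry proteins inward and exportins carry proteins and RNAs outward, and the small GTPase Ran sets the direction, because Rcc1 loads it with GTP on chromatin and Rangap1 triggers GTP hydrolysis in the cytoplasm. In the uterus, estrogen drives growth of the tissue, with a rise of RNA and protein synthesis that comes before cell division, and new ribosomal proteins, histones and transfer RNAs all cross the pore.

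The start regions of 5 members are printed because they hold the motifs counted here or form a contrast between relatives. Each runs from 250 bases before to 50 bases after the start of the gene, 5′ to 3′ on the gene's strand, from RefSeq on build GRCm38.p6. Capitals mark an E-box (CACGTG) or an NRF1 motif, and the Ipo8 window holds neither. The regions are chr5:129019906-129020205 (plus strand) for Ran, chr10:121626283-121626582 (minus strand) for Xpot, chr7:110018065-110018364 (plus strand) for Ipo7, chr6:148831418-148831717 (minus strand) for Ipo8 and chr15:84923178-84923477 (plus strand) for Nup50.
Ran: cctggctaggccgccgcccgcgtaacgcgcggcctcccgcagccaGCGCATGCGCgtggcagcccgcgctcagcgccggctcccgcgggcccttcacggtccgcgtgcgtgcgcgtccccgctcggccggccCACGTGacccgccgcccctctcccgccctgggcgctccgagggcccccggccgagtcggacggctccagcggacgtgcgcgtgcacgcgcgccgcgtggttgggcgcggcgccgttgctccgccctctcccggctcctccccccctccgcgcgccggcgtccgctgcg
Xpot: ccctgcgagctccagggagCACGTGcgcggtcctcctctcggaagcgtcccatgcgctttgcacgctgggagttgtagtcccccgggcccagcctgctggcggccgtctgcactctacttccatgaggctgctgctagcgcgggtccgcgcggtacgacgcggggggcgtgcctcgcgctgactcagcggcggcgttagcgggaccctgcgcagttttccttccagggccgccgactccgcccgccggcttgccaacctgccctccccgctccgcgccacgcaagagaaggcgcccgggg
Ipo7: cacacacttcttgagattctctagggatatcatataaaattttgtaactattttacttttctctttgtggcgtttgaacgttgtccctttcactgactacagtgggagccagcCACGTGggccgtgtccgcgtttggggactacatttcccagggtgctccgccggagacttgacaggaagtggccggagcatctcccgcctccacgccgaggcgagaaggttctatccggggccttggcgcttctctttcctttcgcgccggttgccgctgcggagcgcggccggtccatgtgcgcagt
Ipo8: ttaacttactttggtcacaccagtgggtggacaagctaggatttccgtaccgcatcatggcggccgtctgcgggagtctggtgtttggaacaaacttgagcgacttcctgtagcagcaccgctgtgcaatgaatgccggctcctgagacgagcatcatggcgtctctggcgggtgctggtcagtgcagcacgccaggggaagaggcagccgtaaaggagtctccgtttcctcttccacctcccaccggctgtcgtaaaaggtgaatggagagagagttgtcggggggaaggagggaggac
Nup50: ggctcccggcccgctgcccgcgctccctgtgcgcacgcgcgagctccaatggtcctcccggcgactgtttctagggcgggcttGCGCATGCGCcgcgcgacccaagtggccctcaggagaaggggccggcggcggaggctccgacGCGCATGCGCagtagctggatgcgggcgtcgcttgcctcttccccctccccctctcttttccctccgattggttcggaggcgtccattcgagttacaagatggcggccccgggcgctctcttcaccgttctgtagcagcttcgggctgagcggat

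Start regions were given for 40 of the 50 members, as 47 windows, and were set beside all 32851 windows of the same 300 bases. Both strands were searched, and in the members' windows matches of different motifs overlapped 0 times. The E-box, the core sequence bound by the Myc family among other factors, stood in 9 member windows (19.1%), against 7.15% of all windows. Its carriers were Nup188, Nup54, Nup93, Ranbp2, Ran, Ipo4, Ipo7, Tnpo2 and Xpot. An NRF1 motif stood in 5 member windows (10.6%), those of Nup107, Nup50, Nup62, Ran and Xpo5, against 0.971% of all windows. An ETS motif (CCGGAAG) was found in 7 member windows (14.9%) and in 8.86% of all windows. The full palindrome of the estrogen response element was found in 0 member windows and in 0.0700% of all windows. Median GC content was 64.3% in member windows and 52.7% in all windows, so that windows with more G and C are set beside windows with fewer. These matches describe letters in a window, not sites used in these uteri.

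The arrays carry 60-base probes, and 2 are printed to show what a measured stretch of a member looks like. The probe of Cse1l lies at chr2:166769881-166769940 (plus strand) and that of Nup98 at chr7:109283092-109283151 (minus strand), on build mm9 as the files give it. No mm9 annotation was used here, so the exon under a probe is not stated.
Cse1l probe: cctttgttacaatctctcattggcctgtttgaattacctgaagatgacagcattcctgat
Nup98 probe: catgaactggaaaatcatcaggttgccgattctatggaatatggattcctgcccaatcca

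Between 36505 and 41890 spots per array were well above background and 0 were saturated. Within a group, pairs of arrays correlated at 0.980 to 0.993 over genes (a description, as genes are not replicates). In a principal component analysis 71.7% of the variance lay on component 1, and on component 2 (5.12%) Arg260 PLB replicate 3 and WT PLB replicate 2 lay away from the other arrays. Hoxa10, Hoxa11, Esr1, Pgr and Msx1, which mark the uterus, were well above background on every array. All levels below are log2 signals relative to the 75th percentile of their own array, and levels of different genes are not compared, since probes differ in brightness.

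E2 raised most of the members. In Arg260 uteri 43 of 48 rose and 0 fell, where 33.6% of all genes were called higher, 30.7% lower and 64.3% in either direction. In WT uteri 44 of 48 rose and 0 fell, where 31.9% of all genes were called higher, 31.7% lower and 63.6% in either direction. A call is an adjusted p under 0.05 in limma with Benjamini-Hochberg adjustment over all genes. The median log2 change over the members was 1.09 in Arg260 (range -0.17 to 2.79) and 1.08 in WT (range -0.12 to 2.92), and the median over all genes was 0.02 in Arg260 and -0.02 in WT.

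Many of the rises were large. Called members at least 2-fold higher numbered 26 in Arg260 and 27 in WT, 25 of them in both, beside 14% of all genes in Arg260 and 13.4% in WT. All 4 E2 arrays lay above all 4 PLB arrays for 44 members in Arg260 and 43 in WT, beside 31.2% and 30.1% of all genes in the same genotypes. The members called higher in both genotypes numbered 42. Those not called were Xpo1, Tnpo1 and Nup210l in both genotypes, Nup214 and Xpo7 in Arg260 and Ipo8 in WT.

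**Figure D1:**
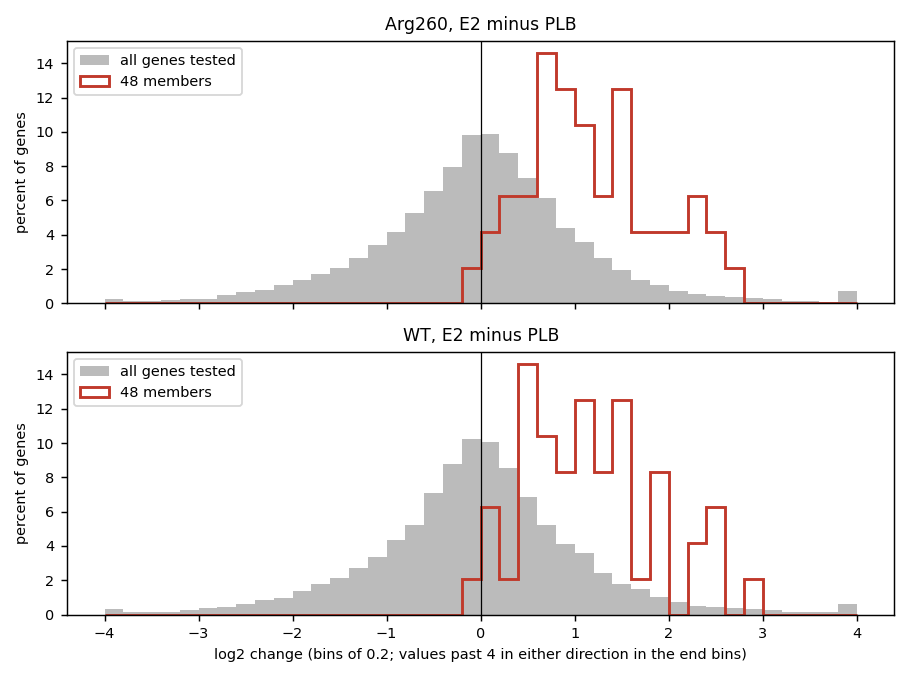
Log2 change from PLB to E2 (horizontal axis, bins of 0.2) for all 25859 genes tested (grey) and the 48 members (red outline), as a percentage of genes, in Arg260 (top) and WT (bottom). The members' changes lie mostly to the right of 0, around medians of 1.09 and 1.08, while all genes centre near 0.

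Some cell type markers were called as well. Of all genes, 33.6% were called higher, 30.7% lower and 64.3% in either direction in Arg260. In WT these shares were 31.9%, 31.7% and 63.6%. The mean level of 8 stromal markers was 3.61 to 4.16 on Arg260 E2 arrays, against 4.44 to 5.23 on Arg260 PLB arrays, and 3.42 to 4.55 on WT E2 arrays, against 4.21 to 5.07 on WT PLB arrays, with 4 of the 8 called lower in each genotype. That of 8 epithelial markers was 2.80 to 3.33 in Arg260 E2, against 2.53 to 2.74 in Arg260 PLB, and 2.76 to 3.21 in WT E2, against 2.48 to 2.89 in WT PLB. Of these 8, 5 were higher and 1 lower in Arg260, and 2 were higher and 2 lower in WT. The mean of 6 smooth muscle markers was 5.76 to 6.06 in Arg260 E2, against 4.98 to 6.09 in Arg260 PLB, and 5.70 to 6.25 in WT E2, against 5.11 to 5.61 in WT PLB, with overlap in Arg260 and none in WT, and 1 of 6 was called higher in Arg260 and 3 of 6 in WT. That of 5 endothelial markers was 0.63 to 0.74 in Arg260 E2, against 0.27 to 0.58 in Arg260 PLB, without overlap, and 0.49 to 0.64 in WT E2, against 0.54 to 0.63 in WT PLB, with 2 called higher and 0 lower in Arg260 and 1 higher and 2 lower in WT. The mean of 7 adipocyte markers spanned -2.64 to 0.51 in Arg260 E2, against -0.05 to 1.52 in Arg260 PLB, and -4.94 to -0.59 in WT E2, against 0.37 to 2.41 in WT PLB, with 2 of 7 called lower in Arg260 and 7 of 7 in WT. The mean of 6 immune markers was 2.70 on Arg260 PLB replicate 3 and 0.60 to 1.22 on the other 15 arrays. In WT this mean was 0.60 to 0.80 on E2 arrays, against 0.91 to 0.96 on PLB arrays, without overlap. Of the 6, 1 was called higher and 2 lower in Arg260, and 1 higher and 1 lower in WT. In whole uterus, fewer cells of a type and less RNA per cell cannot be told apart, and the part of these shifts in the members' changes was not tested. Without WT PLB replicate 2 and Arg260 PLB replicate 3, 43 members were called higher in each genotype.

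The Ran cycle rose as a whole. All 4 of its members were called higher in both genotypes, beside 33.6% of all genes in Arg260 and 31.9% in WT. Their median log2 change was 2.21 in Arg260 (1.87 to 2.30) and 2.10 in WT (1.99 to 2.44). Ran (probe at chr5:129528961-129529020, plus strand, mm9) stood at 7.18, 7.20, 7.001 and 7.13 in Arg260 E2, against 4.83, 4.96, 4.60 and 5.13 in Arg260 PLB. On WT E2 arrays it stood at 7.04, 7.11, 7.16 and 6.91, against 4.96, 4.80, 4.76 and 4.84 in WT PLB. The groups were more than 1 log2 unit apart in both genotypes, and replicates of a group differed by far less. The rise was 4.74-fold in Arg260 (log2 2.25, SE 0.10, limma adjusted p = 2.3e-10) and 4.64-fold in WT (log2 2.21, SE 0.10, limma adjusted p = 2.6e-10).

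Rangap1, which switches Ran off in the cytoplasm, changed with the smallest spread of the cycle. Its level was 3.08, 3.01, 3.12 and 3.13 in Arg260 E2, against 0.68, 0.92, 0.72 and 0.85 in Arg260 PLB. The WT E2 arrays gave 3.04, 3.09, 3.15 and 3.04, against 0.47, 0.74, 0.67 and 0.66 on WT PLB arrays. No E2 array came near a PLB array. The log2 change was 2.30 in Arg260 (SE 0.07, 4.91-fold, limma adjusted p = 1.6e-11) and 2.44 in WT (SE 0.07, 5.44-fold, limma adjusted p = 1.3e-11). Rcc1, the nucleotide exchange factor of Ran, rose by 1.87 in Arg260 and 2.00 in WT on the log2 scale. Ranbp1, a cofactor of GTP hydrolysis by Ran, rose by 2.18 and 1.99 in the same genotypes.

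Importin alpha adaptors, which bind the classical nuclear localisation signal and hang on importin beta, were called higher in 5 of 5 tested members in both genotypes. The share of all genes called higher was 33.6% in Arg260 and 31.9% in WT. The median of the adaptors was 1.66 in each genotype. Kpna2 had the largest change of all members and ranked 438th of 25859 genes by rise in Arg260 and 375th in WT. It stood at 4.46, 4.73, 4.53 and 4.56 in Arg260 E2, against 1.78, 1.74, 1.88 and 1.74 in Arg260 PLB. WT E2 arrays gave 4.70, 4.52, 4.54 and 4.44, against 1.58, 1.59, 1.41 and 1.93 in WT PLB. The gap between treatments was many times the spread within a group. The rise was 6.90-fold in Arg260 (log2 2.79, SE 0.10, limma adjusted p = 4.3e-11) and 7.56-fold in WT (log2 2.92, SE 0.10, limma adjusted p = 3.1e-11). Its 4 tested probes gave log2 changes of 2.79 to 3.14 in Arg260 and 2.92 to 3.32 in WT.

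Kpna1, an adaptor from another branch of the family, crossed from below to above the array's 75th percentile. Its levels were 1.72, 1.80, 1.86 and 1.76 in Arg260 E2, against -0.52, -0.49, -0.40 and -0.43 in Arg260 PLB, and 1.82, 1.80, 1.71 and 1.70 in WT E2, against -0.61, -0.61, -0.80 and -0.55 in WT PLB. Replicates lay within 0.3 log2 units in each group. The fold was 4.74 in Arg260 (SE of log2 0.07, limma adjusted p = 1.1e-11) and 5.28 in WT (SE of log2 0.07, limma adjusted p = 6.5e-12). Close relatives within the family differed in size of change. Kpna6, the nearest relative of Kpna1 among the members, changed by 0.90 in Arg260 and 0.86 in WT, while the sister genes Kpna4 (1.66 and 1.66) and Kpna3 (1.45 and 1.48) were closer together. These contrasts between genes carry no test.

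**Figure D2:**
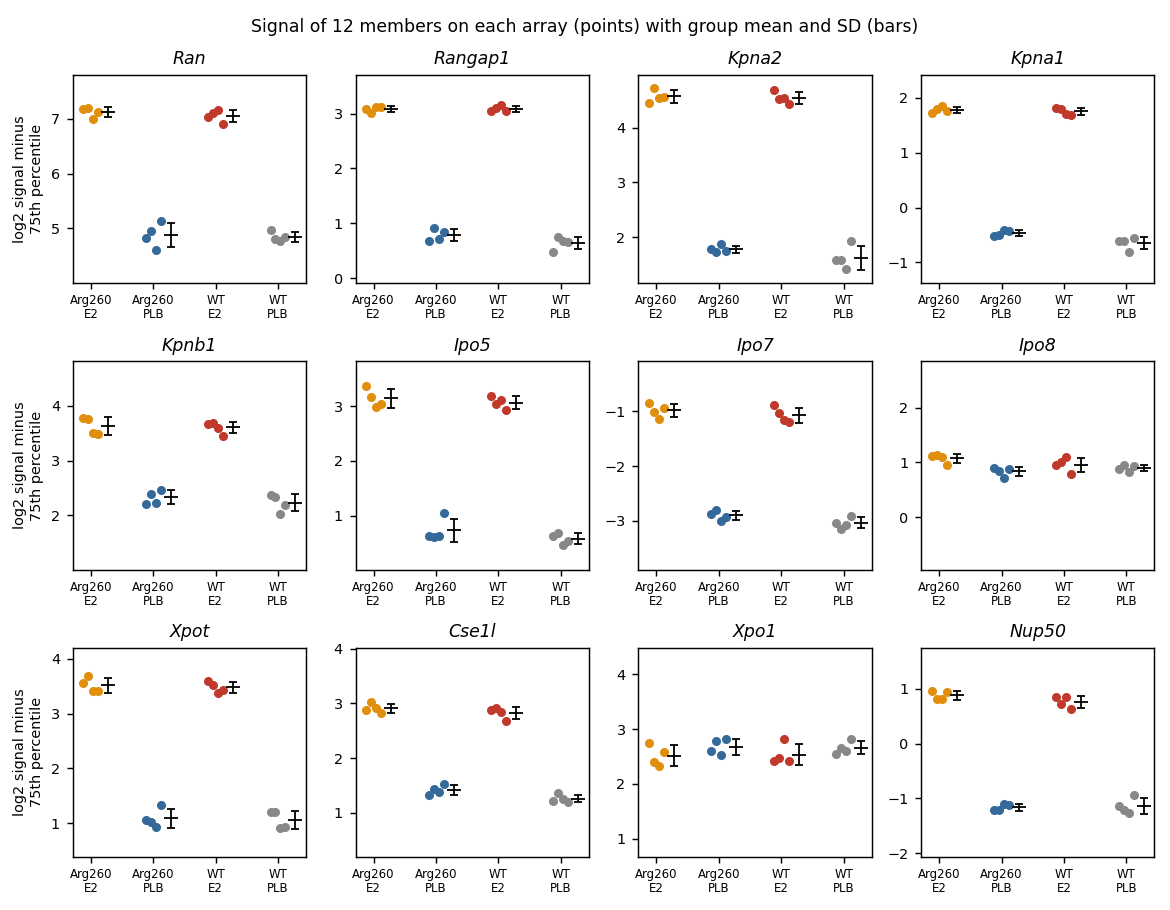
Log2 signal minus the array's 75th percentile for 12 members on each of the 16 arrays (points), with the group mean and SD (black bars, n = 4), and the same span of 3.8 log2 units in every panel. Ran, Rangap1, Kpna2, Kpna1, Kpnb1, Ipo5, Ipo7, Xpot, Cse1l and Nup50 separate E2 from PLB in both genotypes, whereas the Xpo1 groups overlap and the Ipo8 groups overlap in WT.

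Of the 11 importin beta and transportin carriers, 10 rose in Arg260 and 9 in WT, beside 33.6% and 31.9% of all genes. Their median log2 change was 0.78 in Arg260 and 0.70 in WT. The range ran over more than 2 log2 units, and Ipo5, Ipo7 and Ipo4 were at its top. Kpnb1, the importin beta that carries the adaptors, stood at 3.78, 3.75, 3.51 and 3.48 in Arg260 E2, against 2.21, 2.40, 2.22 and 2.47 in Arg260 PLB. The WT E2 values were 3.67, 3.69, 3.60 and 3.46, against 2.38, 2.33, 2.03 and 2.19 in WT PLB. E2 arrays lay above PLB arrays without overlap. The rise was 2.47-fold in Arg260 (log2 1.30, SE 0.10, limma adjusted p = 4.2e-08) and 2.59-fold in WT (log2 1.37, SE 0.10, limma adjusted p = 2.6e-08).

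Ipo5, an importer of ribosomal proteins and histones, had the largest change of the carriers. It gave 3.37, 3.17, 2.98 and 3.05 in Arg260 E2, against 0.64, 0.61, 0.63 and 1.05 in Arg260 PLB. In WT E2 the values were 3.19, 3.03, 3.10 and 2.92, against 0.63, 0.68, 0.46 and 0.54 in WT PLB. Arg260 PLB replicate 4 was higher than the other 3 arrays of its group yet well under every E2 array. The fold was 5.31 in Arg260 (SE of log2 0.11, limma adjusted p = 2.9e-10) and 5.60 in WT (SE of log2 0.11, limma adjusted p = 2.3e-10). A second probe of Ipo5 gave 1.79 in Arg260 and 1.77 in WT, in place of 2.41 and 2.48.

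Ipo7 and Ipo8 are close relatives, and their responses were far apart. Ipo7, which brings in ribosomal proteins and, with Kpnb1, the linker histone, stood at -0.84, -1.01, -1.14 and -0.95 in Arg260 E2, against -2.87, -2.80, -3.01 and -2.92 in Arg260 PLB. In WT E2 it stood at -0.89, -1.04, -1.17 and -1.20, against -3.04, -3.14, -3.07 and -2.90 in WT PLB. That is a rise of 3.77-fold in Arg260 (SE of log2 0.09, limma adjusted p = 2.6e-10) and 3.90-fold in WT (SE of log2 0.09, limma adjusted p = 2.1e-10). Ipo8 gave 1.12, 1.14, 1.09 and 0.96 in Arg260 E2, against 0.90, 0.85, 0.73 and 0.88 in Arg260 PLB, and 0.95, 1.01, 1.09 and 0.79 in WT E2, against 0.88, 0.95, 0.82 and 0.93 in WT PLB. The Ipo8 groups separated narrowly in Arg260 (log2 0.24, SE 0.07, limma adjusted p = 0.0109) and overlapped in WT (log2 0.07, SE 0.07, limma adjusted p = 0.464). Ipo7 carries an E-box in the window printed above and Ipo8 does not, which is a statement about letters alone. This pair was chosen as relatives. Ipo5, with a larger rise than Ipo7 (2.48 in WT), has 0 E-boxes, and Tnpo2, with a smaller one (0.70 in WT), has 2. Whether the motif goes with the size of the change was not tested.

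Ipo4 rose by 1.64 in Arg260 and 1.53 in WT, and Ipo13, which also carries cargo outward, by 0.99 and 1.005. Tnpo3, the importer of serine-arginine rich splicing factors, rose by 0.78 and 0.67. Ipo9, a histone importer, stood at -0.00, -0.22, -0.03 and -0.22 in Arg260 E2, against -0.74, -0.70, -0.92 and -0.67 in Arg260 PLB, and at -0.10, -0.00, -0.16 and -0.07 in WT E2, against -0.62, -0.47, -0.50 and -0.71 in WT PLB. Its groups did not overlap, with log2 changes of 0.64 in Arg260 (limma adjusted p = 7.9e-06) and 0.49 in WT (limma adjusted p = 1.1e-04). Tnpo2 gave 0.37, 0.39, 0.41 and 0.18 in Arg260 E2, against -0.34, -0.06, -0.29 and -0.19 in Arg260 PLB, and 0.43, 0.48, 0.55 and 0.46 in WT E2, against -0.31, -0.11, -0.09 and -0.38 in WT PLB. It was called higher in both genotypes, by 0.56 in Arg260 and 0.70 in WT. Its relative Tnpo1, which imports RNA-binding proteins, was not called (0.15 in Arg260, limma adjusted p = 0.284, and 0.18 in WT, limma adjusted p = 0.204). A second Tnpo1 probe of nearly the same mean level (1.79, beside 1.83 for the brightest) was called higher in both genotypes in a fit of all probes, by 0.39 in Arg260 (SE 0.10, limma adjusted p = 0.00394) and 0.33 in WT (SE 0.10, limma adjusted p = 0.0110). With arrays centred on the median of the genes tested, the brightest probe was called too, at 0.32 in Arg260 (limma adjusted p = 0.0375) and 0.36 in WT (limma adjusted p = 0.0186). Ipo11 was called higher on its brightest probe (0.50 and 0.42), while its second probe gave -0.78 in Arg260 and -0.71 in WT.

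Among the 7 exportins, 5 rose in Arg260 and 6 in WT, beside 33.6% and 31.9% of all genes. The exportin medians were 1.47 and 1.40. Xpot, the exporter of transfer RNA, led them at 3.56, 3.69, 3.41 and 3.41 in Arg260 E2, against 1.07, 1.02, 0.94 and 1.34 in Arg260 PLB. The WT E2 arrays gave 3.60, 3.53, 3.37 and 3.43, against 1.20, 1.20, 0.90 and 0.93 on WT PLB arrays. Every E2 array lay at least 2 log2 units above every PLB array of its genotype. The rise was 5.37-fold in Arg260 (log2 2.43, SE 0.11, limma adjusted p = 1.8e-10) and 5.35-fold in WT (log2 2.42, SE 0.11, limma adjusted p = 1.9e-10).

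Cse1l, which returns importin alpha to the cytoplasm, stood at 2.89, 3.02, 2.92 and 2.82 in Arg260 E2, against 1.32, 1.43, 1.37 and 1.53 in Arg260 PLB. On WT E2 arrays it stood at 2.88, 2.92, 2.83 and 2.67, against 1.22, 1.36, 1.25 and 1.21 in WT PLB. The groups were clear of each other, with a rise of 2.82-fold in Arg260 (SE of log2 0.07, limma adjusted p = 4.7e-10) and 2.96-fold in WT (SE of log2 0.07, limma adjusted p = 3.3e-10). Xpo5, the exporter of microRNA precursors, rose by 1.501 in Arg260 and 1.44 in WT, Xpo4 by 1.47 and 1.40, and Xpo6, the exporter of actin, by 0.74 and 0.76.

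Xpo1, the general exporter of proteins with a leucine-rich export signal, did not share the rise. It stood at 2.75, 2.40, 2.33 and 2.58 in Arg260 E2, against 2.59, 2.79, 2.52 and 2.82 in Arg260 PLB. WT E2 arrays gave 2.42, 2.48, 2.81 and 2.42, against 2.55, 2.65, 2.60 and 2.82 in WT PLB. The groups overlapped in both genotypes. The log2 change was -0.17 in Arg260 (95% interval -0.42 to 0.08, limma adjusted p = 0.227) and -0.12 in WT (95% interval -0.37 to 0.13, limma adjusted p = 0.376), and a second probe gave -0.08 in Arg260 and -0.10 in WT. Scaling decided the call. Xpo1 was called lower under quantile normalization (-0.50 in Arg260 and -0.40 in WT), in the deposited series table (-0.56 and -0.39) and with the percentile taken over probes detected on all arrays (-0.40 and -0.31), and its sign turned in WT to 0.06 when arrays were centred on the median of the genes tested. None of these settings called it higher.

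Xpo7, an exporter with a broad cargo range, was near the threshold. It gave 0.50, 1.18, 1.18 and 0.91 in Arg260 E2, against 0.73, 0.88, 0.42 and 0.41 in Arg260 PLB, and 1.51, 1.41, 0.93 and 1.47 in WT E2, against 0.68, 0.83, 1.05 and 0.80 in WT PLB. The groups overlapped in both genotypes, with a log2 change of 0.34 in Arg260 (SE 0.17, limma adjusted p = 0.101) and 0.49 in WT (SE 0.17, limma adjusted p = 0.0214). Its second probe went the other way, at -0.22 in Arg260 and -0.30 in WT. Leaving out WT E2 replicate 1, 2 or 4 or WT PLB replicate 1 ended the WT call (limma adjusted p = 0.0607, 0.0506, 0.0563 and 0.0589), and leaving out Arg260 E2 replicate 1 made one in Arg260 (limma adjusted p = 0.0167). The WT call also ended under quantile normalization (0.40, limma adjusted p = 0.0532), with the percentile over probes detected on all arrays (0.31, limma adjusted p = 0.138), in the deposited series table (0.36, limma adjusted p = 0.0837), within slide 2 (0.27, limma adjusted p = 0.358) and with all probes averaged (0.09, limma adjusted p = 0.448). Median centring called Xpo7 higher in Arg260 (0.50, limma adjusted p = 0.0186).

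**Figure D3:**
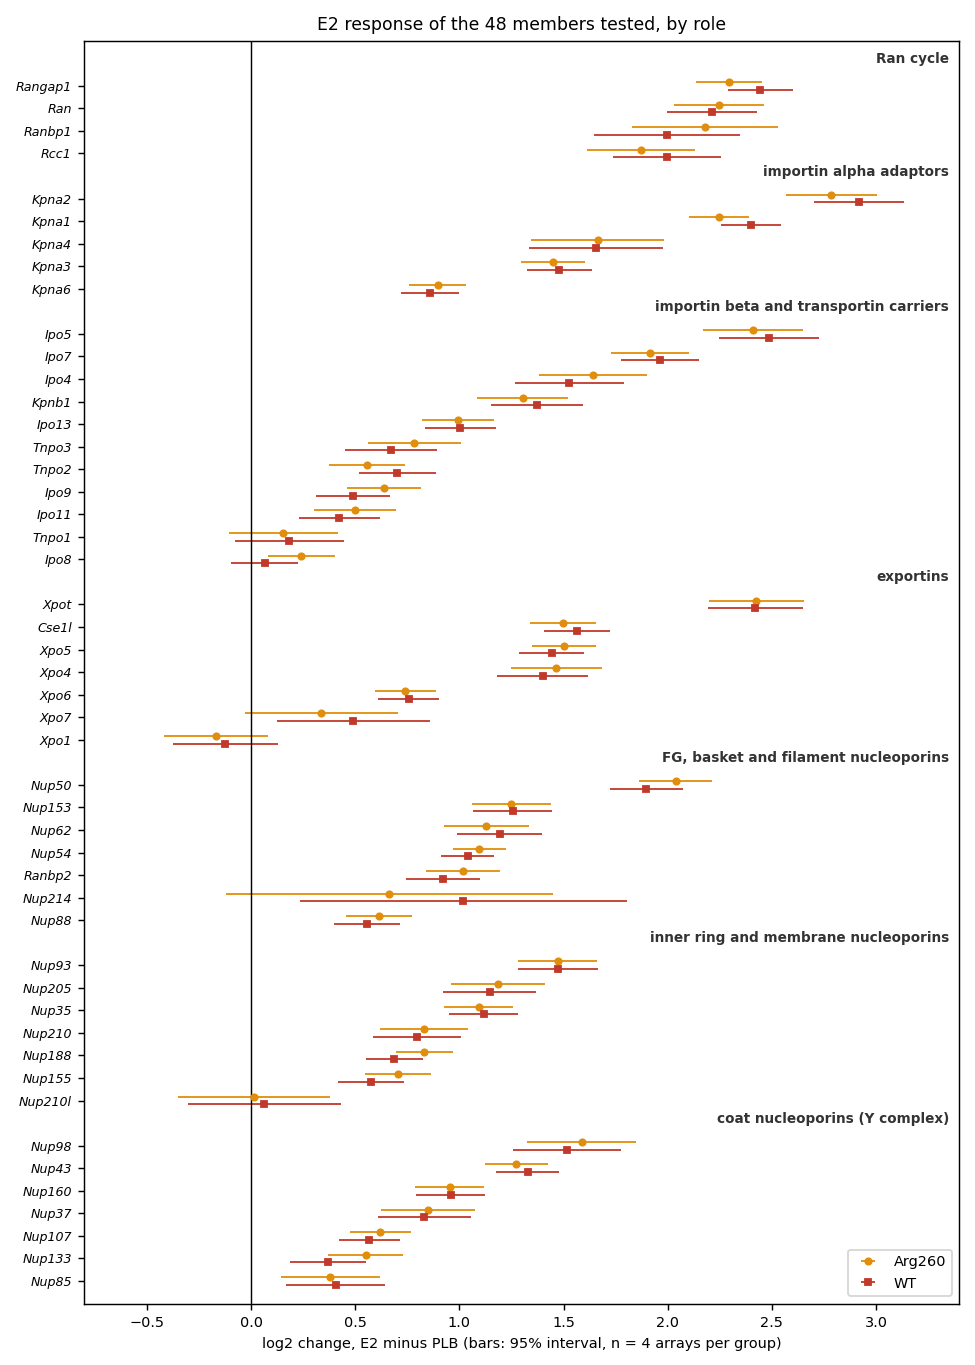
Log2 change from PLB to E2 with its 95% interval for each of the 48 members tested, grouped by role, in Arg260 (orange circles) and WT (red squares, n = 4 arrays per group). The Ran cycle lies near 2 throughout, the carriers spread from near 0 to 2.92, and Xpo1 is the one member below 0 in both genotypes.

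Nucleoporins of all 3 lists, scaffold and FG alike, rose in nearly every case. Over the 21 nucleoporins tested the median log2 change was 0.95 in Arg260 and 0.96 in WT, and over the 27 carriers and Ran genes it was 1.47 in Arg260 and 1.44 in WT. Among those 27, the 11 importin beta and transportin carriers had medians of 0.78 in Arg260 and 0.70 in WT. These lay below the median of each nucleoporin list. No test was made between these subsets. All 7 genes of the coat list were called higher in both genotypes, beside 33.6% of all genes in Arg260 and 31.9% in WT. Medians of the coat genes were 0.85 and 0.83. Nup98, whose precursor also yields the coat protein Nup96, had the largest change of them and stood at 1.39, 1.55, 1.66 and 1.77 in Arg260 E2, against -0.05, -0.09, -0.05 and 0.22 in Arg260 PLB. In WT E2 the values were 1.66, 1.59, 1.51 and 1.30, against -0.18, 0.21, 0.16 and -0.20 in WT PLB. The groups stood over 1 log2 unit apart. The rise was 3.00-fold in Arg260 (SE of log2 0.12, limma adjusted p = 3.4e-08) and 2.86-fold in WT (SE of log2 0.12, limma adjusted p = 5.5e-08).

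Nup43, a beta-propeller subunit of the Y complex, gave 2.22, 2.44, 2.33 and 2.41 in Arg260 E2, against 0.98, 1.09, 1.11 and 1.12 in Arg260 PLB, and 2.23, 2.45, 2.32 and 2.22 in WT E2, against 0.98, 0.96, 0.92 and 1.04 in WT PLB. It rose 2.42-fold in Arg260 (SE of log2 0.07, limma adjusted p = 1.3e-09) and 2.51-fold in WT (SE of log2 0.07, limma adjusted p = 9.1e-10), with no overlap. The other coat subunits formed a graded series. Nup160 rose by 0.95 in Arg260 and 0.96 in WT, Nup37 by 0.85 and 0.83, Nup107 by 0.62 and 0.57, Nup133 by 0.55 and 0.37 and Nup85 by 0.38 and 0.41. The call on Nup85 was lost, and its sign turned to values of -0.13 to -0.01, under quantile normalization with either background and in the deposited series table. It was lost with the sign kept under the percentile over detected probes (0.15 in Arg260 and 0.22 in WT), within slide 2 (0.39 and 0.53) and, in WT, within slide 1 (0.28).

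In the inner ring and membrane list 6 of 7 rose in both genotypes, beside 33.6% of all genes in Arg260 and 31.9% in WT. The medians of the list were 0.83 in Arg260 and 0.80 in WT. Nup93, the linker of the inner ring, stood at 3.56, 3.69, 3.59 and 3.52 in Arg260 E2, against 2.05, 2.01, 2.02 and 2.41 in Arg260 PLB, and at 3.54, 3.54, 3.61 and 3.47 in WT E2, against 1.92, 2.17, 2.08 and 2.08 in WT PLB. Every E2 array was above every PLB array, and the rise was 2.77-fold in Arg260 (SE of log2 0.09, limma adjusted p = 3.3e-09) and 2.78-fold in WT (SE of log2 0.09, limma adjusted p = 3.2e-09). Nup205, a large scaffold partner of Nup93, gave 3.03, 2.87, 2.53 and 2.72 in Arg260 E2, against 1.73, 1.59, 1.47 and 1.61 in Arg260 PLB, and 2.91, 2.85, 2.74 and 2.56 in WT E2, against 1.66, 1.58, 1.57 and 1.68 in WT PLB. It separated fully and rose 2.28-fold in Arg260 (limma adjusted p = 1.5e-07) and 2.21-fold in WT (limma adjusted p = 2.3e-07).

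Nup188, the relative of Nup205 in the same ring, stood at -1.29, -1.37, -1.32 and -1.32 in Arg260 E2, against -2.25, -2.03, -2.20 and -2.14 in Arg260 PLB, and at -1.52, -1.37, -1.34 and -1.44 in WT E2, against -2.10, -2.04, -2.14 and -2.13 in WT PLB. Its change was smaller, 0.83 in Arg260 (limma adjusted p = 3.5e-08) and 0.69 in WT (limma adjusted p = 2.6e-07), again without overlap. These values are those of the brightest probe. The 3 tested probes of Nup188 disagreed in size, from 0.15 to 1.20 in Arg260 and from 0.49 to 0.88 in WT. Nup35 rose by 1.09 in Arg260 and 1.12 in WT, and Nup155 by 0.71 and 0.57. The membrane nucleoporin Nup210 rose by 0.83 and 0.80, while its relative Nup210l, measured at a dim signal, was not called (0.01 in Arg260 and 0.06 in WT).

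Of the 7 tested nucleoporins of the channel, basket and cytoplasmic filaments, 6 rose in Arg260 and 7 in WT, beside 33.6% and 31.9% of all genes. Their medians were 1.09 and 1.04. Nup50, a basket protein that helps release cargo from importin alpha, stood at 0.95, 0.80, 0.82 and 0.94 in Arg260 E2, against -1.21, -1.21, -1.09 and -1.11 in Arg260 PLB. In WT E2 it stood at 0.85, 0.72, 0.85 and 0.63, against -1.14, -1.21, -1.26 and -0.94 in WT PLB. It had the largest change of the nucleoporins, 4.11-fold in Arg260 (SE of log2 0.08, limma adjusted p = 8.3e-11) and 3.73-fold in WT (SE of log2 0.08, limma adjusted p = 1.6e-10). Its window printed above holds 2 copies of the NRF1 motif, which again is a statement about letters alone. Whether the NRF1 motif goes with the size of a change was not tested.

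Nup153, the FG nucleoporin that anchors the basket, gave 2.87, 3.04, 2.83 and 2.77 in Arg260 E2, against 1.58, 1.69, 1.49 and 1.74 in Arg260 PLB, and 2.95, 2.88, 2.82 and 2.82 in WT E2, against 1.73, 1.72, 1.39 and 1.62 in WT PLB. It rose 2.38-fold in Arg260 (SE of log2 0.09, limma adjusted p = 1.6e-08) and 2.39-fold in WT (SE of log2 0.09, limma adjusted p = 1.5e-08), with clear separation. The central channel pair Nup62 and Nup54 rose by 1.13 and 1.09 in Arg260 and by 1.19 and 1.04 in WT. Ranbp2, the filament protein that binds sumoylated Rangap1, rose by 1.02 in Arg260 and 0.92 in WT, and Nup88 by 0.62 and 0.56. Nup214, measured at a dim signal, changed by 0.66 in Arg260 (limma adjusted p = 0.128) and 1.02 in WT (limma adjusted p = 0.0248). WT E2 replicate 2 stood at -2.41, above the other WT E2 arrays at -4.51 to -4.10. Without that array the WT change of Nup214 was 0.55 (limma adjusted p = 0.0482) and the Arg260 change was called (limma adjusted p = 0.0129), and without WT PLB replicate 2 the WT call was lost (limma adjusted p = 0.0695). It was lost as well within slide 2 (0.36, limma adjusted p = 0.426), with the percentile over detected probes (0.83, limma adjusted p = 0.0602), without both arrays that stand apart (0.88, limma adjusted p = 0.0744) and with only the groups compared in the fit (limma adjusted p = 0.0716). The Arg260 change was called in the deposited series table (0.42, limma adjusted p = 6.2e-04) and with only the groups compared (limma adjusted p = 0.0317).

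Several probes were tested for 16 members, and 10 of these spanned under 0.5 log2 units in both genotypes. Probes of Ipo11 and Xpo7 took opposite signs, as did those of Tnpo1 in Arg260, where a dim probe gave -0.09. A second Ran probe gave 2.81 in Arg260 and 2.95 in WT, above the 2.25 and 2.21 of the brightest. The second probe of Nup93 gave 1.04 in Arg260 and 0.90 in WT. Small changes depended on the scaling as well. Under quantile normalization with either background the calls were lost for Ipo8 in Arg260 (0.14 and 0.15), for Nup133 (0.16 and 0.17 in Arg260, 0.04 in WT with both) and for Ipo11 (0.18 and 0.17 in Arg260, 0.15 in WT with both). In the deposited series table they were lost for Ipo8 in Arg260 (0.14), for Nup133 in WT (0.02) and for Ipo11 (0.18 in Arg260 and 0.15 in WT). The percentile over detected probes ended the calls of Ipo8 in Arg260 (0.01) and Nup133 in WT (0.18), and within slide 2 those of Ipo8 in Arg260 (0.22), Nup133 in WT (0.33) and Ipo11 (0.44 in Arg260 and 0.41 in WT) were lost. With all probes averaged Ipo11 was not called and its sign turned (-0.14 in each genotype). Median centring called Ipo8 higher in WT (0.25, limma adjusted p = 0.0111), beside the gained calls of Tnpo1 and Xpo7 given above.

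**Figure D4:**
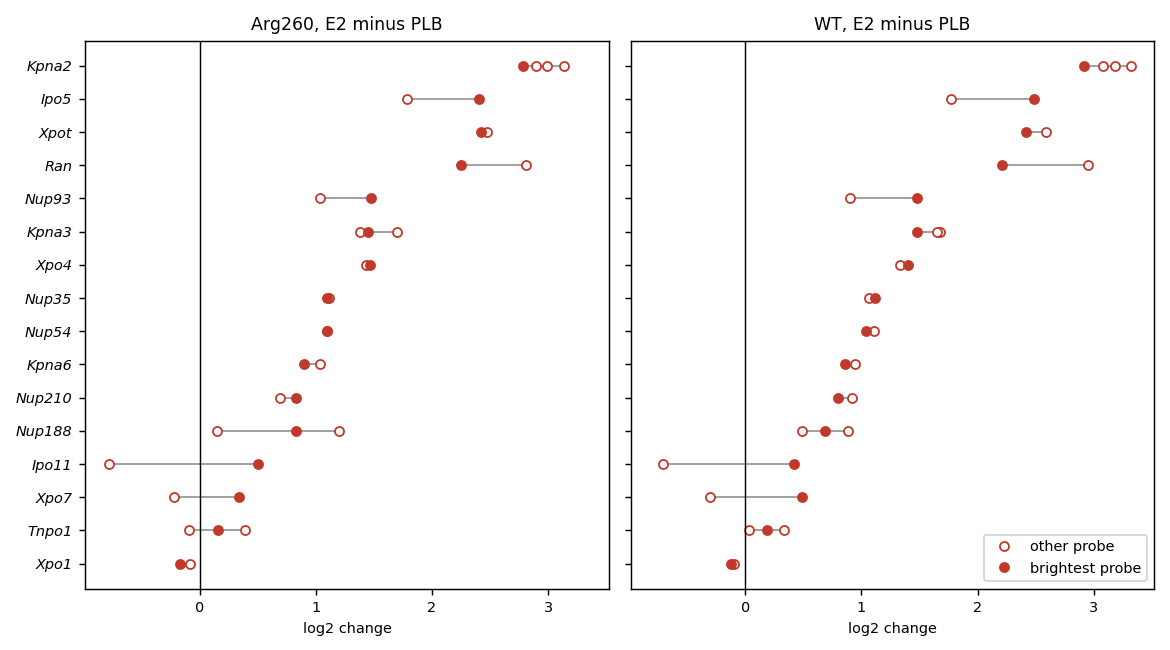
Log2 change from PLB to E2 for every tested probe of the 16 members with several probes, in Arg260 (left) and WT (right), with the brightest probe filled. The 4 Kpna2 probes lie together near 3, while the 2 probes of Ipo11 and the 2 of Xpo7 fall on either side of 0.

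No member's response was called different between genotypes. The interaction, the change in Arg260 minus that in WT, was called by limma for 0 of 48 members and for 0% of all genes, and its unadjusted p was under 0.05 for 0 members and 961 genes (3.72%). Its values ran from -0.36 (Nup214) to 0.18. The 95% interval lay within 0.5 log2 units of 0 for 44 members and within 1 for 47, Nup214 being the exception at a half-width of 1.11. The smallest unadjusted p of the members was that of Ipo8 in the limma fit, at 0.118 (difference 0.18, SE 0.11). Kpna1 (-0.15) and Nup188 (0.14) followed, with unadjusted limma p of 0.126 and 0.133. Across the 48 members the 2 responses, which share no arrays but do share probes, correlated at 0.989 (Pearson) and 0.985 (Spearman), as a description.

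Without hormone, 0 of 48 members were called between Arg260 and WT, beside 0% of all genes, and 2 members and 638 genes (2.47%) had an unadjusted limma p under 0.05. Kpna1 was 0.18 higher in Arg260 PLB than in WT PLB (SE 0.07, limma unadjusted p = 0.0158). Ipo9 was lower in Arg260 PLB by a log2 difference of -0.18 (SE 0.08, limma unadjusted p = 0.0428). After hormone, 0 of 48 members and 0% of all genes were called, and 1 member and 1899 genes (7.34%) had an unadjusted limma p under 0.05. That member was Xpo7, with a log2 difference of -0.38 (SE 0.17, limma unadjusted p = 0.0413). The limma adjusted p of every member was at least 0.667 in these comparisons.

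Genes of the same machinery whose names fall outside the rule rose in most cases too. Of 17 such genes tested, 15 rose and 0 fell in each genotype, with medians of 1.09 in Arg260 and 1.11 in WT. Among all genes the shares were 33.6% higher and 30.7% lower in Arg260, and 31.9% higher and 31.7% lower in WT. Sec13, a coat subunit shared with vesicle transport, rose by 1.77 in Arg260 (SE 0.11) and 1.71 in WT (SE 0.11), and Nutf2, which returns Ran to the nucleus, by 1.43 and 1.504 (SE 0.12 each). Aaas and Ranbp17 were not called. Of 20 genes of messenger RNA export, which leaves the nucleus mostly without these receptors, 17 rose and 2 fell in Arg260 and 16 rose and 3 fell in WT, with medians of 0.93 and 0.78. Thoc1, of the complex that couples transcription to export, rose by 2.00 in Arg260 and 1.98 in WT, and the adaptor Alyref by 1.73 and 1.75. Gle1, which activates the helicase at the cytoplasmic side of the pore, was lower, at -0.38 in Arg260 and -0.48 in WT, as was Nxt2, at -0.24 and -0.41.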

How the data were processed

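Uterine total RNA (200 ng) was labelled with Cy3 and hybridised to 1-colour Agilent arrays, per the labels' protocols. Intensities of spots in the deposited files were read with Agilent Feature Extraction (version 10.10.1.1), and per the file headers background was subtracted and arrays were not scaled to each other. A deposited table of 37585 probes gives log2 values with a median of 8.69 in each column. How the authors filtered it and corrected its background is not stated in the labels or headers. Its genes were not centred, and it served as an alternative.

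Values were log2 processed signal minus the array's own 75th percentile, taken over spots that are no controls (922 to 1296 intensity units). Outlier spots were left out and spots of a probe averaged. Probes well above background on at least 4 of 16 arrays (38678) entered, and the probe with the highest mean stood for each gene. Groups came from the labels. Group means of all 16 arrays were fitted with limma 3.58.1 in R 4.3.3 (lmFit, eBayes, 12 residual degrees of freedom), with 5 two-sided comparisons, each adjusted over 25859 genes by Benjamini-Hochberg. The script was tested on simulated data. The number of arrays limits precision, with a median 95% half-interval of 0.296 log2 units for the E2 change in WT.

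The 16 arrays were sorted by the scan date of their headers into 2 sets, called slides here, each with 2 arrays of every group. The sample labels name no slide, so that each set is a physical slide is an inference. Members and lists were chosen with earlier results of these data known. Described array by array were the 2 members of each role with the largest mean change, Ran, Kpna2, Kpnb1, Xpo1 and Cse1l, and the 3 with the smallest p of each genotype comparison. Genes outside the members are the largest called changes of each list, and Aaas and Ranbp17, the uncalled rest of theirs. Members named for probes that disagree, or for single arrays, were chosen after their values were seen. Other scalings, background corrections, filters, probe rules, blocks, slides and left-out arrays were tried.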

Additional observations from a re-analysis of the deposited data

Results flagged for a closer look

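Over the 21 members described array by array, 84 groups of 4 arrays were checked for an array far from the other 3, and 6 had one. About 1 in 20 groups gives such an array by chance, or 4.2 of 84. In Arg260 PLB, replicate 4 was high for Ipo5 (1.05, others 0.61 to 0.64), for Nup93 (2.41, others 2.01 to 2.05) and for Nup98 (0.22, others -0.09 to -0.05). In Arg260 E2, Tnpo2 was low on replicate 4, at 0.18, where the others gave 0.37 to 0.41. In WT E2, replicate 3 was high for Xpo1 (2.81, others 2.42 to 2.48) and low for Xpo7 (0.93, others 1.41 to 1.51). Without WT E2 replicate 3 the WT change of Xpo1 was -0.22 (limma adjusted p = 0.107) and that of Xpo7 0.62 (limma adjusted p = 0.00473), and 44 members were called higher in WT.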

How the results depend on the processing

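The members called stayed between 40 and 45 in Arg260 and between 39 and 46 in WT over the settings that kept all arrays, used 1 slide or left out both arrays that stand apart, and between 43 and 44 in each genotype with 1 array left out. Within slides 1 and 2, 43 and 40 were called in Arg260 and 43 and 39 in WT. The genotype comparisons called 0 members in every setting run. With the replicate number as a block the counts were 43 in Arg260 and 44 in WT, and no member's call changed. Arrays that share a number are not taken as pairs, since their deviations from the group means correlated at -0.11 to 0.26 and 5 of 16 arrays correlated best with their own number. The median change over the members lay between 0.78 and 1.25 in Arg260 and between 0.80 and 1.26 in WT. A percentile over probes detected on all arrays moved the median of all genes to -0.21 in each genotype, and centring on the median of genes tested moved it to 0.18 in Arg260 and 0.16 in WT. Of the members, 39 were called higher in both genotypes in every setting.

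Signs turned only for 6 of the other members, and the cause was not tested. With all probes of a gene averaged, which brings in its second probe, Ipo11 gave -0.142 in Arg260 and -0.145 in WT. Under quantile normalization, the same with normexp background, and in the deposited table, Nup85 gave -0.107, -0.133 and -0.128 in Arg260 and -0.0276, -0.00819 and -0.0179 in WT, and Tnpo1 gave -0.0728, -0.0368 and -0.0169 in Arg260 and -0.0121, -0.0112 and -0.0189 in WT. Ipo8 gave -0.0139 in WT under quantile normalization. With the percentile over detected probes, Tnpo1 gave -0.0754 in Arg260 and -0.00059 in WT, Nup210l -0.215 and -0.121, and Ipo8 -0.118 in WT. Xpo1 gave 0.0581 in WT with median centring. Nup210l gave -0.0509 in Arg260 with normexp background, -0.224 within slide 2 in Arg260 and -0.0128 within slide 1 in WT, and with 1 array left out it ran from -0.102 to 0.163 in Arg260 and from -0.0501 to 0.142 in WT.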

Other observations

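The nuclear lamina and inner membrane, which anchor the pores, moved in both directions, as did the genes tested as a whole. Of 13 genes listed, 7 rose and 3 fell in Arg260, and 6 rose and 3 fell in WT, with medians of 0.56 and 0.54. Of all genes, 33.6% were called higher and 30.7% lower in Arg260, and 31.9% higher and 31.7% lower in WT. Lmna, which encodes the A-type lamins, rose by 1.55 in Arg260 (SE 0.13) and 1.64 in WT (SE 0.13), and the inner membrane protein Emd by 1.29 and 1.23 (SE 0.09 each). Syne2 and Sun2, which link the nucleus to the cytoskeleton, were lower, Syne2 at -1.06 in Arg260 and -1.02 in WT, and Sun2 at -0.90 and -1.004.

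Of 10 genes of mitosis and proliferation tested, 2 rose and 0 fell in each genotype, with medians of -0.19 in Arg260 and 0.20 in WT. They were Tpx2, a spindle factor that importin alpha binds (2.39 in Arg260 and 2.34 in WT, SE 0.24 each), and Birc5 (1.85 and 2.33, SE 0.19 each). Of all genes, 33.6% were called higher and 30.7% lower in Arg260, and 31.9% higher and 31.7% lower in WT. The median 95% half-interval over the 10 genes was 1.16 log2 units in each genotype, beside 0.19 over the members. The genes of this list that were not called can therefore not be taken as unchanged. On WT E2 replicate 3 all 10 stood higher than on the other WT E2 arrays, Mki67 for example at 1.93 against -1.25 to -1.06.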
